A study of Homo sapiens with 24 samples.

Results

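The integrated stress response and the amino acid genes that belong to it were followed in 2 human colorectal cancer cell lines. The genes were listed by symbol and found in the expression tables by their Ensembl identifier, which gave all 34 of the 34 genes named among 33382 genes listed. They comprise 14 regulators and stress targets, 12 enzymes of amino acid synthesis and the linked one-carbon steps, the tRNA exporter XPOT and 7 amino acid transporters. SW480 and SW620 are established lines of colorectal adenocarcinoma, grown in high-glucose DMEM with serum, added nonessential amino acids and a stable glutamine source. Each line carried either an empty lentiviral vector or Tet2CD, the catalytic domain of the DNA demethylase TET2, and all cells had been selected with 5 ug/ml puromycin. Cells of each kind received the solvent DMSO, 4 ng/ml TGFB1 (the TGF-beta ligand) or 1 uM RepSox, an inhibitor of the type I TGF-beta receptor kinase, for 24 h. These are the treatments as the sample labels give them, whereas the study's own text describes a mixture of TGF-beta ligands at another dose and a longer exposure. This made 12 groups of 2 RNA-seq libraries, 24 in all. Nothing states that the 2 libraries came from separate cultures, or whether a line was 1 clone, so that p-values speak only for the variation among libraries and may reflect technical variation alone.

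In the integrated stress response, kinases that sense missing amino acids, misfolded protein, haem shortage or viral RNA phosphorylate the initiation factor eIF2. Most translation then slows while the transcription factor ATF4 is made in larger amounts from mRNA already present, so that ATF4 protein need not follow ATF4 mRNA. ATF4, with partners of the C/EBP family, switches on genes for amino acid synthesis, uptake and tRNA charging, together with feedback and cell death regulators such as PPP1R15A, TRIB3 and DDIT3.

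ATF4 and its C/EBP partners bind a composite element whose core reads TGATGNAA. A search of the RefSeq promoter windows (GRCh38.p14, 250 bases before to 50 after each start) for these 8 letters on both strands found it in 8 of the 26 members that have a window, 30.8% of them, and in 1217 of 27305 genes, 4.46%. Counted by window instead, since genes with several starts have several, it was in 8 of 41 windows of members and 1270 of 35116 of all. The share was 3 of 12 stress regulators (ATF3, CHAC1, CEBPG), 1 of 7 synthesis enzymes (ASNS) and 4 of 6 transporters (SLC1A4, SLC1A5, SLC3A2, SLC7A1). A match is a description of the letters and shows no binding. The members were listed as genes of the response that ATF4 serves, so a share above that of all genes is no independent result. The 5 genes with the motif wholly upstream of an annotated start are printed as 100 bases in the gene's direction, with the matched letters in capitals, because the same genes are followed one by one further on. The match in CHAC1 lies on the opposite strand.
ATF3, chr1:212565170-212565269, plus strand: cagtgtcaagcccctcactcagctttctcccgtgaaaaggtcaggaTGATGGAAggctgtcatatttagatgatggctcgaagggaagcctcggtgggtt
CHAC1, chr15:40953221-40953320, plus strand: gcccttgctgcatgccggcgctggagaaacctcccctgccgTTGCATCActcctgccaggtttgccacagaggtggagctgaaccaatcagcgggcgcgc
CEBPG, chr19:33374013-33374112, plus strand: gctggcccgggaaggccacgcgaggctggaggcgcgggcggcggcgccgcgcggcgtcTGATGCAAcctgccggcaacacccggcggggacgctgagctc
ASNS, chr7:97872423-97872522, minus strand: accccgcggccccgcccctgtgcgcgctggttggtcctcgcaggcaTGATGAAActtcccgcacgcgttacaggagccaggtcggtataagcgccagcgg
SLC1A5, chr19:46784858-46784957, minus strand: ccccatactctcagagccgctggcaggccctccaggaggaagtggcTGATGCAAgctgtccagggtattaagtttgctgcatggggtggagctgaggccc
The capitals begin at -191 in ATF3, -209 in CHAC1, -42 in CEBPG, -68 in ASNS and -97 in SLC1A5, counted from the annotated start of that window. ATF3, CEBPG and ASNS have windows at 2 starts and SLC1A5 at 3, and each holds the motif in 1 of them only. The window of SLC1A5 with the match belongs to a start inside the gene, downstream of the first.

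Levels are given as CPM (library-scaled counts, with TMM scaling), for comparing a gene between libraries, and as TPM (library-scaled transcripts, which allow for gene length), for comparing genes. The TET2 range, the marker sums and the count of markers at 1 CPM or more use CPM without TMM scaling. Means of single markers carry it. The libraries held 2146123 to 4410567 expected counts. TET2 reads stood at 10.3 to 25.2 CPM in vector libraries and at 207 to 2821 CPM in Tet2CD libraries, in accord with the construct labels. Of 11 colon epithelium markers, 6 averaged at least 1 CPM in SW480 and 10 in SW620, with KRT8, KRT18, KRT19, EPCAM, VIL1 and CDX2 present in both and CEACAM5 and CDH17 at 0 in the SW480 vector DMSO libraries. The summed blood, endothelium and fibroblast markers reached at most 13.6, 16.3 and 40.0 CPM in any library. The first libraries of SW480 Tet2CD cells under DMSO, TGFB1 and RepSox stood apart. Ribosomal protein genes took 10.1% to 15.0% of their counts against 5.74% to 9.42% in the other 21 libraries, and their count-weighted GC content was 52.9% to 54.0% against 50.1% to 52.2%. Over the 34 members the difference between the 2 libraries (log2 of CPM + 0.5) had an SD of 0.427, 0.736 and 0.918 in those 3 groups against 0.160 to 0.470 in the other 9.

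Among the members the glutamine transporter SLC1A5 had the most transcripts per length in both lines under DMSO, at 2399 and 2424 TPM in SW480 and 694 and 775 in SW620. ATF4 mRNA came next with 467 and 479 TPM in SW480 and 662 and 712 in SW620, the higher level being that of SW620. The mitochondrial serine hydroxymethyltransferase SHMT2 held rank 4 in SW480 and rank 3 in SW620. At the other end lay SLC7A11, the cystine-glutamate exchanger, with 0.940 and 1.51 TPM in SW480 and 5.49 and 7.01 in SW620. NUPR1, a small stress-induced chromatin protein, had 301 reads in all 24 libraries together and CTH (cystathionine gamma-lyase) had 390, so little could be resolved for either. ASNS, which makes asparagine and is a classical ATF4 target, held an intermediate level with 128 and 130 TPM in SW480 and 104 and 118 in SW620.

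TGFB1 raised 10 of 14 regulators of the response in SW620 cells while 3 of 12 synthesis enzymes fell. In the edgeR quasi-likelihood test of 4 TGFB1 against 4 DMSO libraries, averaged over the constructs, 15 of 34 members passed an adjusted p of 0.05, against 15.6% of the 15302 genes tested, 8.31% higher and 7.25% lower. Of the 14 stress regulators 10 rose and none fell. Their median log2 fold change was 1.09 beside 0.01 over all genes. In bulk RNA a change in the number of expressing cells and a change per cell cannot be told apart. Fold changes are given ± the SE of the fit.

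DDIT4 (REDD1, ENSG00000168209), an inhibitor of mTORC1, had the smallest p of the members. Its level was 191 and 215 CPM in vector DMSO libraries against 974 and 869 with TGFB1, and 162 and 160 against 753 and 928 in Tet2CD cells. All TGFB1 libraries lay above all DMSO libraries, with a log2 fold change of 2.28 ± 0.15 (adjusted p = 1.11e-07). The eIF2 phosphatase subunit PPP1R15A (GADD34), which ends the response by dephosphorylating eIF2, had 45.4 and 49.4 against 124 and 128 CPM in vector cells and 46.8 and 41.2 against 97.0 and 143 in Tet2CD cells. TRIB3, a pseudokinase that restrains ATF4, had 168 and 168 against 398 and 344 CPM in vector cells and 164 and 152 against 316 and 500 in Tet2CD cells. Neither gene overlapped between treatments, and the log2 fold changes were 1.43 ± 0.13 (adjusted p = 4.1e-06) and 1.25 ± 0.17 (adjusted p = 0.000111) in that order.

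Among the transcription factors, ATF3, a stress-induced repressor, had 11.7 and 10.5 against 38.3 and 32.7 CPM in vector cells and 11.1 and 10.7 against 13.0 and 45.3 in Tet2CD cells. Its lowest TGFB1 library, at 13.0 CPM, lay just above the highest DMSO library, and the log2 fold change was 1.54 ± 0.30 (adjusted p = 0.00233). DDIT3 (CHOP), which links lasting stress to cell death, had 32.1 and 38.0 against 85.9 and 78.5 CPM in vector cells and 31.4 and 26.5 against 47.9 and 83.1 in Tet2CD cells, without overlap, and a log2 fold change of 1.20 ± 0.27 (adjusted p = 0.00637). Exons of DDIT3 share 355 bases with MARS on the opposite strand, and no source states whether the counting used strand. MARS itself had a log2 fold change of -0.02 (adjusted p = 0.959). CEBPB had 26.2 and 22.5 against 63.7 and 43.3 CPM in vector cells and 28.0 and 22.8 against 45.2 and 58.5 in Tet2CD cells, again without overlap, with a log2 fold change of 1.08 ± 0.21 (adjusted p = 0.00216). ATF4 mRNA had 593 and 620 against 750 and 689 CPM in vector cells and 601 and 573 against 541 and 754 in Tet2CD cells, and the groups overlapped, since 1 TGFB1 library of Tet2CD cells was the lowest of the 8. Its log2 fold change of 0.19 ± 0.17 (adjusted p = 0.497) did not pass.

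STC2, a secreted glycoprotein hormone, had 98.1 and 89.5 against 156 and 161 CPM in vector cells and 113 and 104 against 181 and 217 in Tet2CD cells, which do not overlap, with a log2 fold change of 0.81 ± 0.12 (adjusted p = 0.000263). The leucine sensor SESN2, the lipoprotein receptor VLDLR and the growth arrest gene GADD45A also rose, by log2 fold changes of 1.10 (adjusted p = 0.00439), 0.77 (adjusted p = 0.0288) and 0.84 (adjusted p = 0.00776). VLDLR lost its call whichever of the 8 libraries was left out (adjusted p up to 0.17). GADD45A lost it without the first DMSO library of either construct or the second TGFB1 library of Tet2CD cells (up to 0.0658). CHAC1, a glutathione-degrading enzyme, CEBPG and NUPR1 did not pass, at log2 fold changes of 0.34, 0.43 and 1.60. Leaving out each of the 8 libraries in turn gave 8 to 11 stress regulators higher and none lower. Without the first SW480 Tet2CD libraries in the shared fit the count was 12 higher and none lower, and it was 7 higher in vector cells alone and 4 in Tet2CD cells alone. The count over all genes also rose without those libraries and fell within either construct alone, as given at the end.

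**Figure D1:**
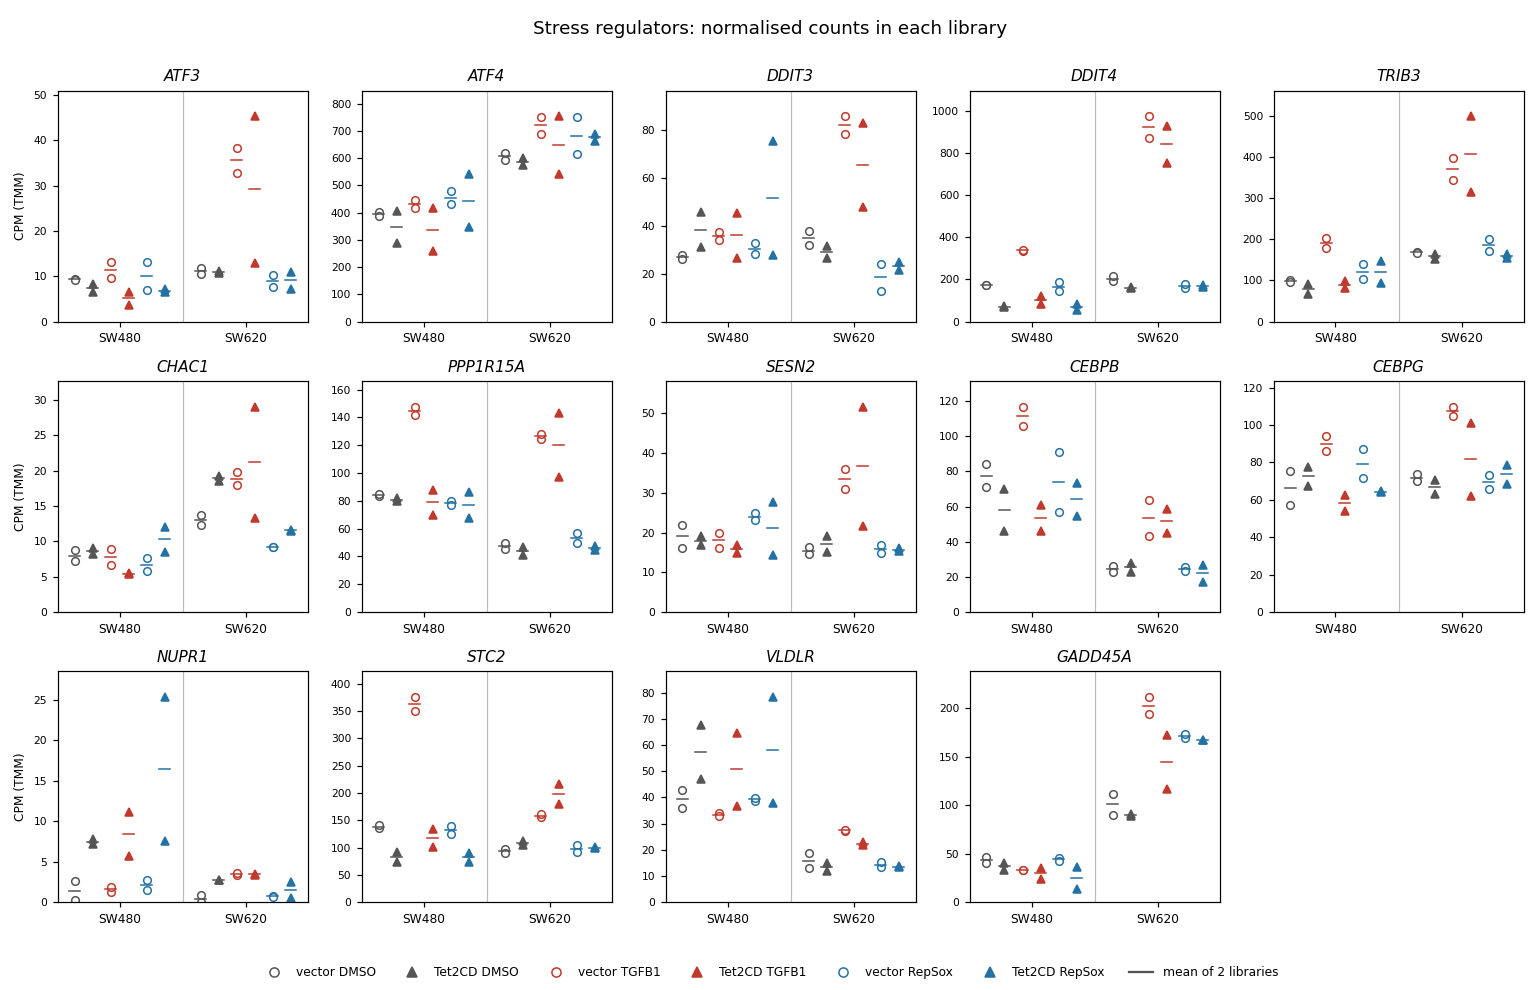
CPM (linear axes from 0, TMM scaling) of the 14 stress regulators in each of the 24 libraries, with SW480 left and SW620 right of the line in each panel, open circles for vector cells, filled triangles for Tet2CD cells, colours for the treatments and a bar for the mean of 2 libraries. DDIT4 in SW620 stands at 160 to 215 CPM under DMSO and at 753 to 974 under TGFB1, while ATF4 overlaps between these treatments.

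The second TGFB1 library of SW620 Tet2CD cells was higher than the first for nearly the whole set. Of the 34 members 31 were lower in the first library, against 48.5% of all genes tested. The median absolute log2 difference was 0.52 over members and 0.26 over all genes. Ribosomal protein genes took 7.93% and 8.19% of the counts of these libraries, and their GC contents were 51.3% and 50.9%. Without the first library 16 members were called, and 13 without the second.

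Of 12 enzymes none was called higher and 3 were called lower with TGFB1 in SW620, and their median log2 fold change was -0.17. All 3 belong to proline synthesis from glutamate. PYCR3, a pyrroline-5-carboxylate reductase, had 8.64 and 7.60 against 1.95 and 1.35 CPM in vector cells and 14.6 and 14.4 against 3.25 and 3.72 in Tet2CD cells. Its isozyme PYCR1 had 208 and 211 against 112 and 119 CPM in vector cells and 261 and 240 against 121 and 190 in Tet2CD cells. ALDH18A1, which makes pyrroline-5-carboxylate, had 142 and 146 against 102 and 96.0 CPM in vector cells and 156 and 153 against 102 and 116 in Tet2CD cells. In each gene every TGFB1 library lay below every DMSO library, with log2 fold changes of -2.17 ± 0.35 (adjusted p = 0.000548), -0.77 ± 0.14 (adjusted p = 0.00149) and -0.52 ± 0.12 (adjusted p = 0.00761). ALDH18A1 lost its call without the filter on low counts (adjusted p = 0.0565), in vector cells alone (0.0857) and in Tet2CD cells alone (0.113). PYCR1 lost its call in Tet2CD cells alone, and PYCR3 kept its call in every alternative. Fewer of all genes were called within either construct alone as well. PYCR3 is a low-count gene, with 869 reads in all libraries together.

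ASNS had 112 and 120 against 153 and 154 CPM in vector cells and 138 and 131 against 103 and 168 in Tet2CD cells, and the treatments overlapped, with a log2 fold change of 0.20 ± 0.18 (adjusted p = 0.495). The serine synthesis enzymes PHGDH and PSAT1 had negative and PSPH a positive log2 fold change, none past the threshold, at -0.45 (adjusted p = 0.229), -0.35 (adjusted p = 0.341) and 0.39 (adjusted p = 0.0874). SHMT2 and MTHFD2, the mitochondrial one-carbon pair, had 0.19 and 0.11, the transsulfuration enzymes CBS and CTH -0.34 and 0.20, and the alanine aminotransferase GPT2 -0.01, none of which passed. CBS was counted beside its near-identical copy CBSL, which held 0 to 15.1 CPM, so reads may have been split between them. XPOT was not called, with 0.44 (adjusted p = 0.191).

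**Figure D2:**
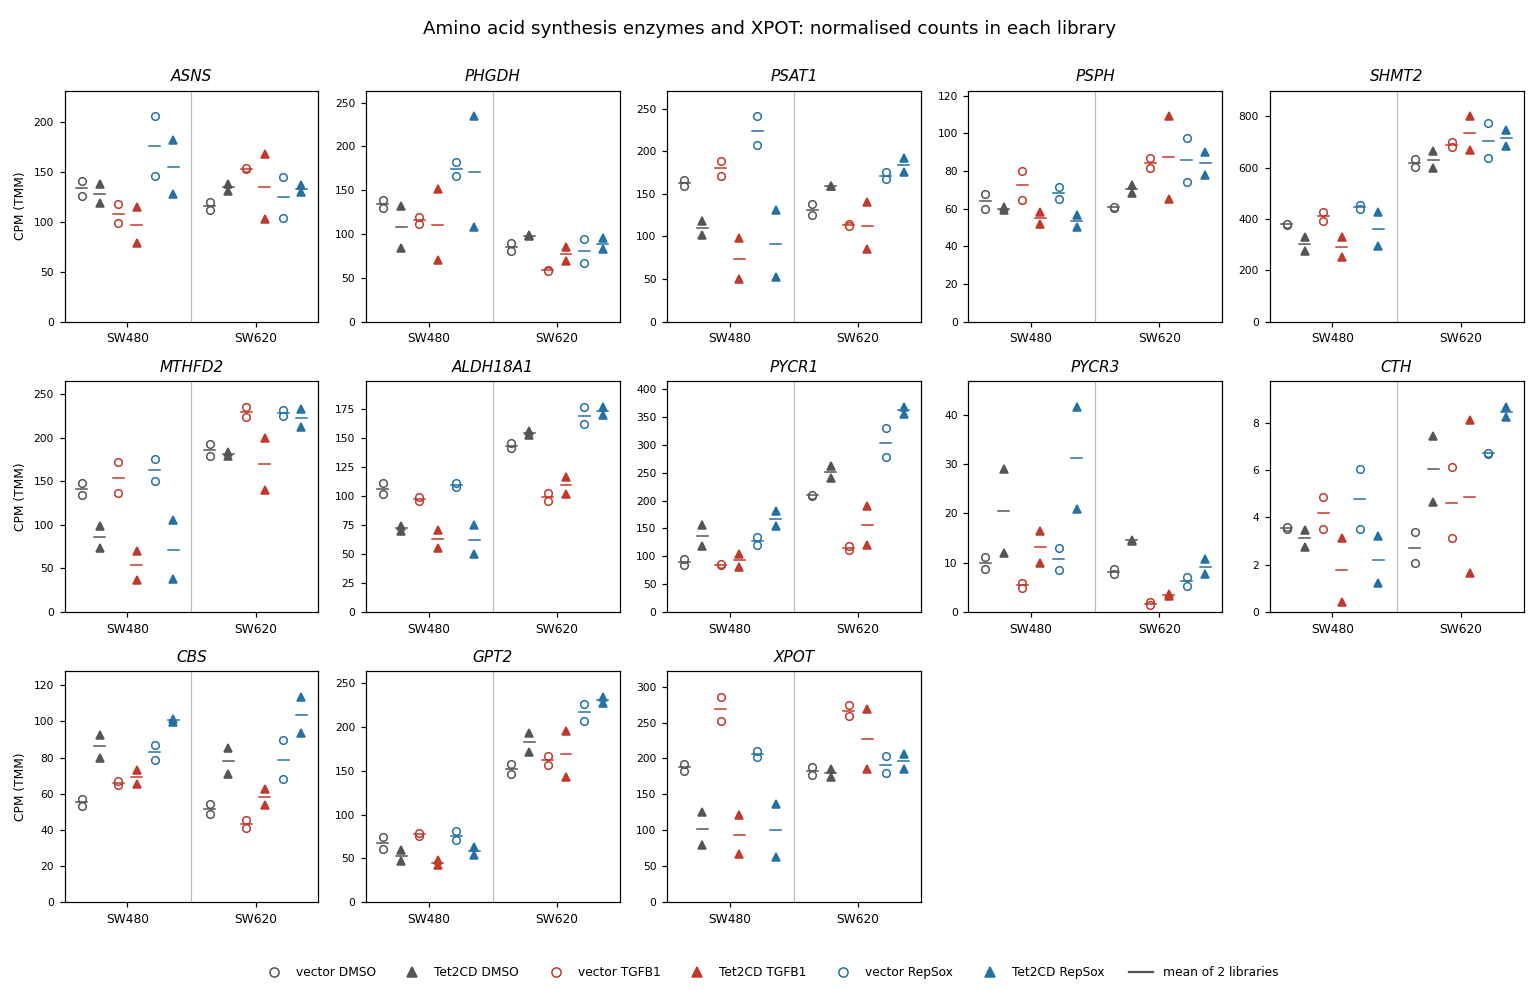
CPM (linear axes from 0, TMM scaling) of the 12 synthesis enzymes and XPOT in each library, drawn as for the regulators. In SW620, PYCR1 stands at 208 to 261 CPM under DMSO, 112 to 190 under TGFB1 and 278 to 369 under RepSox.

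The 7 transporters did not share a direction under TGFB1 in SW620. SLC1A5 rose, from 1086 and 1183 to 1567 and 1527 CPM in vector cells and from 1092 and 1029 to 1776 and 1541 in Tet2CD cells, which do not overlap, a log2 fold change of 0.55 ± 0.11 (adjusted p = 0.00244). SLC7A5, the leucine exchanger LAT1, fell, with 383 and 370 against 289 and 271 CPM in vector cells and 460 and 453 against 313 and 410 in Tet2CD cells, a log2 fold change of -0.38 ± 0.11 (adjusted p = 0.0253), the groups overlapping across constructs. Its call was lost on leaving out any 1 library other than the first vector TGFB1 and the second Tet2CD TGFB1 library (adjusted p up to 0.102), and with an offset for GC content or no filter on low counts. SLC3A2, the heavy chain that SLC7A5 and SLC7A11 need at the membrane, had 0.39 (adjusted p = 0.176) and SLC7A11 had 0.26 (adjusted p = 0.541). SLC38A2, a neutral amino acid transporter induced by amino acid lack, had 512 and 471 against 818 and 892 CPM in vector cells and 419 and 449 against 690 and 761 in Tet2CD cells. Its TGFB1 libraries lay above the DMSO libraries, but the log2 fold change of 0.77 ± 0.32 (adjusted p = 0.115) did not pass. It was called with no filter on low counts (adjusted p = 0.000206), with the GC offset (adjusted p = 0.00809), without the first SW480 Tet2CD libraries (adjusted p = 3.78e-06) and with SW620 libraries alone (adjusted p = 3.25e-06). Without those 3 SW480 libraries, and with SW620 libraries alone, 9 members that had not passed were called, CEBPG, NUPR1, PSPH, XPOT, SLC3A2 and SLC38A2 higher and PHGDH, PSAT1 and CBS lower. Many more of all genes were called in both of these fits as well, so the 15.6% does not apply to them. Those counts are given at the end. SLC1A4 and the arginine transporter SLC7A1 had 0.26 and -0.10. Of the 8 genes whose window holds TGATGNAA, ATF3 and SLC1A5 were called higher and the other 6 (CHAC1, CEBPG, ASNS, SLC7A1, SLC3A2, SLC1A4) were not called, beside 15 of the 34 members and 15.6% of all genes.

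**Figure D3:**
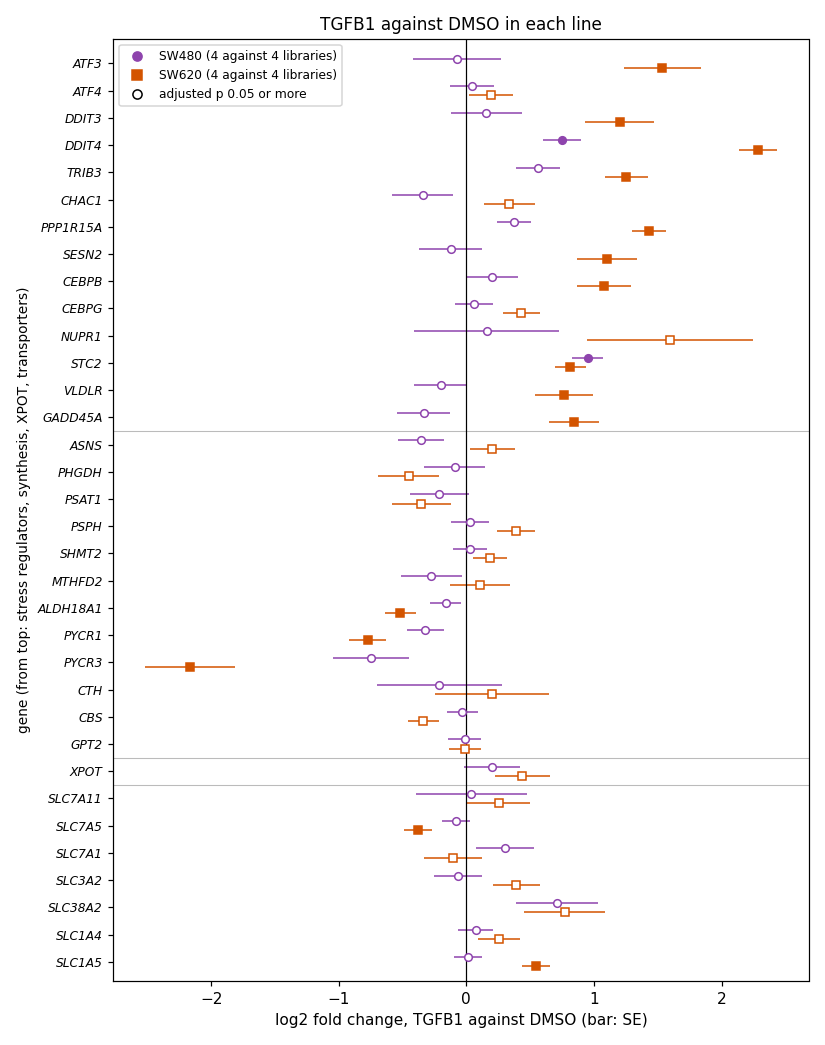
Log2 fold change of TGFB1 against DMSO for each member, averaged over constructs, in SW480 (circles) and SW620 (squares), with bars for the SE and open symbols where the adjusted p was 0.05 or more. In SW620 10 of the 14 stress regulators are filled and lie right of 0, whereas in SW480 only DDIT4 and STC2 are filled.

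Genes next to the set in the pathway were read by lists, in the same fit, beside the 15.6% of all genes called, 8.31% higher and 7.25% lower. None of 13 eIF2 kinases and eIF2 subunits was called in SW620 with TGFB1 by edgeR (2 at an unadjusted p under 0.05). Of 18 genes from other branches of the unfolded protein response 6 rose and none fell, with a median of 0.37. HERPUD1, a membrane protein of endoplasmic reticulum degradation, rose by a log2 fold change of 1.65 ± 0.22 (adjusted p = 7.96e-05) and the co-chaperone DNAJC3 by 1.18 ± 0.18 (adjusted p = 0.000294). Of 11 further ATF4 targets tested 3 rose, among them the stress cytokine GDF15 (1.33, adjusted p = 2.28e-06) and the cell cycle inhibitor CDKN1A (1.34, adjusted p = 6.53e-05). In the 20 aminoacyl-tRNA synthetases WARS rose (0.59, adjusted p = 0.00563) and VARS fell (-0.67, adjusted p = 0.0041), with a median of -0.01. Among 16 other one-carbon and amino acid enzymes tested 4 fell, of which GOT2 (-0.77, adjusted p = 0.000402) and SHMT1 (-0.75, adjusted p = 0.000548) had the smallest p. SLC7A8 was the 1 of 14 other amino acid transporters that rose (0.42, adjusted p = 0.0468). Markers of other cell types that moved with TGFB1 in SW620 were VWF, from 2.53 to 5.76 CPM on average, and COL1A1, from 8.62 to 15.4 CPM, and the fibroblast markers summed to 22.6 to 26.0 CPM under DMSO and 24.5 to 40.0 under TGFB1. The colon epithelium markers summed to 7882 to 8218 CPM under DMSO and 9631 to 11940 under TGFB1. The part of these in the changes of the members was not tested.

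In SW480 cells the same treatment changed 2 of 34 members, DDIT4 and STC2, both higher, against 1.05% of all genes, 0.732% higher and 0.314% lower. The 14 regulators had a median log2 fold change of 0.11 and all genes 0.02. STC2 had 136 and 141 CPM in vector DMSO libraries against 376 and 351 with TGFB1, and 73.5 and 91.4 against 102 and 134 in Tet2CD cells. The TGFB1 libraries of each construct lay above its DMSO libraries, but the levels in vector cells were the higher ones in both treatments. The log2 fold change was 0.95 ± 0.12 (adjusted p = 0.00128). DDIT4 had 175 and 175 against 335 and 341 CPM in vector cells and 74.7 and 67.6 against 83.8 and 123 in Tet2CD cells, with the same order of groups, and a log2 fold change of 0.75 ± 0.15 (adjusted p = 0.0173). The call of DDIT4 was lost on leaving out any 1 of the libraries except the first Tet2CD TGFB1 library (adjusted p up to 0.131) and with the GC offset (adjusted p = 0.108), and in a fit of SW480 libraries alone neither gene passed (adjusted p = 0.281 for DDIT4 and 0.111 for STC2). Without the first SW480 Tet2CD libraries 4 members were called, all higher, and the count over all genes rose as well.

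Within the constructs of SW480 the values differed. In vector cells TRIB3 had 102 and 96.1 CPM under DMSO and 178 and 203 with TGFB1, and PPP1R15A had 83.2 and 84.6 against 141 and 148, without overlap in either gene. In Tet2CD cells the corresponding values were 91.1 and 68.1 against 98.7 and 81.1 for TRIB3, and 79.8 and 81.7 against 88.0 and 69.8 for PPP1R15A, which overlap. The log2 fold changes in vector cells alone were 0.94 (adjusted p = 0.0972) and 0.79 (0.0714), and 1.39 for STC2 (0.00286) and 0.95 for DDIT4 (0.0495). In Tet2CD cells alone no member was called, and STC2 had 0.52. The difference of the TGFB1 effect between constructs was itself tested: no member passed by edgeR (6 at an unadjusted p under 0.05) or by DESeq2, against 0.0131% of all genes, and the log2 difference, Tet2CD minus vector, was -0.88 ± 0.24 (adjusted p = 0.684) for STC2 and -0.82 ± 0.26 (adjusted p = 0.829) for PPP1R15A. The first SW480 Tet2CD libraries enter the Tet2CD side of this test, and without them no member passed either. In SW620 no member passed the same test of the constructs by either tool, none had an unadjusted p under 0.05, and 0% of genes passed.

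ATF4, DDIT3, ASNS and SLC7A11 were not called with TGFB1 in SW480. ATF4 had 402 and 387 against 416 and 445 CPM in vector cells and 406 and 287 against 416 and 260 in Tet2CD cells. DDIT3 had 27.8 and 26.1 against 34.2 and 37.6 CPM in vector cells and 45.8 and 31.2 against 45.4 and 26.6 in Tet2CD cells. In both genes the first Tet2CD libraries, which stand apart, were the high ones of their pairs. ASNS had 141 and 126 against 118 and 98.9 CPM in vector cells and 138 and 118 against 115 and 78.7 in Tet2CD cells, where the TGFB1 libraries were the lower ones within each construct. Its log2 fold change was -0.35 ± 0.18 (adjusted p = 0.445). SLC7A11 had 5.56 and 8.17 against 15.8 and 11.9 CPM in vector cells and 3.52 and 3.71 against 1.24 and 2.35 in Tet2CD cells, higher with TGFB1 in vector cells and lower in Tet2CD cells, at levels of few reads.

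The 3 members whose TGFB1 effect differed between the lines past the threshold, against 2.07% of all genes (0.902% with the higher and 1.17% with the lower effect in SW480), were DDIT4, PPP1R15A and GADD45A, each with the lower effect in SW480. The log2 difference, SW480 minus SW620, was -1.54 ± 0.21 (adjusted p = 0.00102) for DDIT4 and -1.06 ± 0.19 (adjusted p = 0.00647) for PPP1R15A. For GADD45A it was -1.18 ± 0.29 (adjusted p = 0.0437). The last was lost on leaving out 1 library in 14 of 16 cases (adjusted p up to 0.158) and with an offset for GC content, the 2 libraries without that effect being the second SW480 Tet2CD TGFB1 and the first SW620 Tet2CD TGFB1 library. The difference for STC2, which was called in both lines, was 0.14 ± 0.17 (adjusted p = 0.824). Of the 14 regulators 13 had a smaller effect in SW480, with a median difference of -1.01 beside 0.01 over all genes. A fit without the first SW480 Tet2CD libraries keeps 1 library in each SW480 Tet2CD group, and no share of all genes is given for it. Its count of members called can therefore not be read as a result about the members. The effects compared here are averages over the constructs. The median effect over the regulators was 0.36 in vector and -0.11 in Tet2CD cells of SW480, and 1.12 and 0.95 in SW620. The line difference was not tested in vector cells alone.

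RepSox, the receptor inhibitor, changed few members. It shares its DMSO libraries with the TGFB1 comparisons, so both are set side by side and not correlated. In SW480 no gene at all passed by edgeR, which is 0% of genes (433 at an unadjusted p under 0.05, 4 of them members), and DESeq2 called 1 gene, not a member. In SW620 4 of 34 members were called, all higher, against 4.69% of all genes, 2.01% higher and 2.68% lower. Markers of other cell types that moved with RepSox in SW620 were PECAM1, from 2.46 to 7.02 CPM on average (1.40, adjusted p = 0.0176), and COL1A1, from 8.62 to 4.11 CPM (-1.08, adjusted p = 0.00824). The endothelium markers summed to 4.31 to 7.17 CPM under DMSO and 7.14 to 16.3 with RepSox, the fibroblast markers to 22.6 to 26.0 and 12.7 to 19.6, and their part in the changes of the members was not tested. SLC7A11 had 33.3 and 41.2 CPM in vector DMSO libraries against 105 and 55.5 with RepSox, and 26.0 and 27.4 against 56.8 and 59.5 in Tet2CD cells. CBS had 49.1 and 54.1 against 68.0 and 89.8 CPM in vector cells and 71.0 and 85.3 against 114 and 93.7 in Tet2CD cells. PYCR1 had 208 and 211 against 278 and 330 CPM in vector cells and 261 and 240 against 369 and 355 in Tet2CD cells. GADD45A had 90.4 and 111 against 169 and 173 CPM in vector cells and 89.3 and 90.9 against 167 and 167 in Tet2CD cells. All RepSox libraries lay above the DMSO libraries of their construct in these genes. The log2 fold changes were 1.12 ± 0.24 (adjusted p = 0.0129) for SLC7A11 and 0.51 ± 0.12 (adjusted p = 0.0234) for CBS. They were 0.53 ± 0.14 (adjusted p = 0.0406) for PYCR1 and 0.83 ± 0.20 (adjusted p = 0.0223) for GADD45A. Whichever of the 8 libraries was left out, at most 1 member was called, and within vector or Tet2CD cells alone none was called. GADD45A had 0.84 with TGFB1 and 0.83 with RepSox in SW620, whereas PYCR1 had -0.77 and 0.53. The RepSox effect did not pass as different between the lines for any member by edgeR (3 at an unadjusted p under 0.05), against 1.03% of all genes, and DESeq2 called 1. Nor did it pass as different between the constructs for any member in SW480 or SW620 by edgeR, with no member at an unadjusted p under 0.05 and none called by DESeq2.

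TGFB1 and RepSox cells were also compared directly, as ligand against receptor inhibition. In SW620 20 of 34 members were called, 12 higher and 8 lower with TGFB1, against 29.1% of all genes, 14.5% higher and 14.5% lower. Of the regulators 10 of 14 were higher and none lower, and of the synthesis enzymes 6 of 12 were lower and none higher, with medians of 1.16 and -0.54 beside 0.02 over all genes. DDIT4, at 161 and 176 CPM in vector and 165 and 175 in Tet2CD cells with RepSox, differed from its TGFB1 level by a log2 fold change of 2.38 ± 0.15 (adjusted p = 3.27e-08). With RepSox, DDIT3 was at 12.8 and 24.0 CPM in vector and 24.8 and 21.5 in Tet2CD cells, below every other SW620 library, and its log2 fold change was 1.84 ± 0.28 (adjusted p = 0.000144). CHAC1, not called against DMSO in either treatment, ranged from 13.3 to 29.1 CPM with TGFB1 and from 9.19 to 11.6 with RepSox, a log2 fold change of 0.94 ± 0.21 (adjusted p = 0.00275). With RepSox, ATF3 ranged from 7.25 to 10.9 CPM, PPP1R15A from 44.2 to 56.9, TRIB3 from 153 to 200 and STC2 from 91.2 to 105, all below the TGFB1 libraries. Their log2 fold changes were 1.83, 1.32, 1.18 and 0.84, with adjusted p of 0.000318, 2.87e-06, 7.46e-05 and 7.77e-05.

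The 6 synthesis enzymes lower with TGFB1 than with RepSox in SW620 were PYCR1, CBS, ALDH18A1, PYCR3, GPT2 and PSAT1. PYCR1 had a log2 fold change of -1.31 ± 0.14 (adjusted p = 6.41e-06). CBS, at 45.7 and 41.0 CPM in vector and 62.8 and 53.7 in Tet2CD cells with TGFB1, had -0.84 ± 0.12 (adjusted p = 8.95e-05). ALDH18A1 and PYCR3, at 162 to 177 and 5.30 to 10.7 CPM with RepSox, had -0.72 (adjusted p = 0.00031) and -1.66 (adjusted p = 0.00246). GPT2, at 207 to 234 CPM with RepSox and 143 to 195 with TGFB1 (-0.44, adjusted p = 0.0139), and PSAT1 (-0.65, adjusted p = 0.0441) were less firm. GPT2 lost its call without the first Tet2CD TGFB1, the first Tet2CD RepSox or the second vector TGFB1 library (up to 0.0703), and PSAT1 lost its call on leaving out any 1 library but the second Tet2CD TGFB1 library (up to 0.19). SLC7A11 was also lower with TGFB1 than with RepSox (-0.86, adjusted p = 0.013), a call lost without the first TGFB1 library of either construct or the first vector RepSox library (up to 0.0929), while ATF4 (0.01, adjusted p = 1) and ASNS (0.16, adjusted p = 0.551) were not called. In SW480 DDIT4 (0.81, adjusted p = 0.00829) and STC2 (0.98, adjusted p = 0.000614) were higher with TGFB1 and PYCR1 lower (-0.72, adjusted p = 0.0154), 3 of 34 members against 2.03% of all genes, 1.2% higher and 0.83% lower. PYCR1 lost this call without either vector TGFB1 library, the second Tet2CD TGFB1 or the first vector RepSox library (up to 0.078), and DDIT4 without the second Tet2CD TGFB1 or the second vector RepSox library (up to 0.062). The other members called between TGFB1 and RepSox in SW620 were SESN2, CEBPB, VLDLR, SLC1A4 and SLC1A5, which were higher with TGFB1 at log2 fold changes of 1.14, 1.18, 0.83, 0.53 and 0.39, and SLC7A5, lower at -0.38. VLDLR, SLC1A4, SLC1A5 and SLC7A5 lost these calls without 1, 4, 2 and 4 of the 8 libraries.

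Tet2CD was compared with the vector under DMSO, 2 against 2 libraries in each line. In SW480 3 of 34 members were called, 1 higher and 2 lower, against 6.75% of all genes, 4.18% higher and 2.57% lower. DDIT4 had 175 and 175 CPM with the vector and 74.7 and 67.6 with Tet2CD, and STC2 had 136 and 141 against 73.5 and 91.4. Both were lower in Tet2CD cells without overlap, with log2 fold changes of -1.30 ± 0.21 (adjusted p = 0.00169) and -0.74 ± 0.17 (adjusted p = 0.0174). CBS, with 57.4 and 53.4 against 92.7 and 80.0 CPM, was higher, at 0.64 ± 0.17 (adjusted p = 0.0378). The sum of CBS and CBSL was 59.2 and 56.2 against 93.1 and 81.0 CPM. CBS lost its call whichever of the 4 libraries was left out (adjusted p up to 0.342), and STC2 without either vector library or the first Tet2CD library (up to 0.256). Without the first Tet2CD libraries of all 3 treatments 10 members were called, 1 higher and 9 lower. Averaged over the 3 treatments 22 were called, 6 higher and 16 lower, and with an offset for GC content 7, all lower. The 6.75% of all genes belongs to the main fit, and no share of all genes is given for these alternatives. Their counts can therefore not be read as a result about the members. Libraries averaged over treatments may also share a culture. In the fit of SW480 libraries alone none was called.

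Among the transporters SLC38A2, SLC7A1, SLC1A5, SLC7A5 and SLC7A11 had lower levels in SW480 Tet2CD cells under DMSO, and SLC3A2 and SLC1A4 had higher ones. SLC38A2 had 224 and 247 CPM with the vector and 77.1 and 147 with Tet2CD, SLC7A1 212 and 277 against 101 and 145, and XPOT 183 and 193 against 79.0 and 125, none of which passed the test over all libraries. Their log2 fold changes were -1.07 (adjusted p = 0.16), -0.99 (adjusted p = 0.0725) and -0.87 (adjusted p = 0.0976). All 3 were called without the first SW480 Tet2CD libraries, at -0.69 (adjusted p = 0.0127), -0.77 (adjusted p = 0.0451) and -0.60 (adjusted p = 0.0345). They were also called with no filter on low counts (adjusted p = 0.000451, 0.00213 and 0.0098), and XPOT with the GC offset (adjusted p = 0.0337). NUPR1, at 2.64 and 0.255 CPM with the vector, was at 7.82 and 7.18 with Tet2CD, a log2 fold change of 2.40 (adjusted p = 0.0769) that passed only with no filter (adjusted p = 0.00169) and averaged over treatments. The median over the 34 members was -0.27 beside 0.03 over all genes. Across the members the difference between the first and second Tet2CD library correlated with gene GC content (r of 0.574 under DMSO, 0.521 with TGFB1 and 0.571 with RepSox, over 34 genes that share their libraries), and its part in these values was not tested. In SW620 no member was called by edgeR or DESeq2, 3 had an unadjusted p under 0.05, and 0.0261% of genes passed. The Tet2CD effect did not pass as different between lines for any member by edgeR (6 at an unadjusted p under 0.05, and 2 called by DESeq2), against 0.484% of all genes. For DDIT4 the log2 difference, SW480 minus SW620, was -0.97 ± 0.29 (adjusted p = 0.209) and for STC2 -0.95 ± 0.24 (adjusted p = 0.128). Without the first SW480 Tet2CD libraries both were called, at -1.06 (adjusted p = 0.0134) and -0.83 (adjusted p = 0.0299), together with PHGDH, at -0.90 (adjusted p = 0.0466).

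In the main fit the lines differed in 5 of 7 transporters in vector cells. Under DMSO in vector cells 14 of 34 members were called between SW620 and SW480, 6 higher and 8 lower in SW620, against 34.6% of all genes, 16.8% higher and 17.8% lower. In Tet2CD cells 20 were called, 13 higher and 7 lower, against 46.7%, 22.7% higher and 24% lower. That is 41.2% and 58.8% of the members. With an offset for GC content the split in vector cells was 10 higher and 7 lower. The transporters had a median log2 fold change of -1.16 in vector cells, beside 0.03 over all genes. In vector cells the marker genes LUM, at 0.128 CPM on average in SW480 and 11.7 in SW620, and PECAM1, at 0 and 1.81 CPM, were called as well. The fibroblast markers summed to 8.97 to 15.1 CPM in SW480 and 22.6 to 22.9 in SW620, and the endothelium markers to 2.90 to 5.69 and 4.33 to 4.75, and their part in the differences of the members was not tested.

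SLC1A4, a neutral amino acid transporter, had 73.8 and 74.6 CPM in SW480 against 8.33 and 11.4 in SW620 vector libraries, and 82.9 and 86.4 against 14.6 and 16.0 in the Tet2CD libraries, with a vector-cell log2 fold change of -2.90 ± 0.23 (adjusted p = 4.33e-08). Its relative SLC1A5 had 3535 and 3427 CPM in SW480 against 1086 and 1183 in SW620 vector libraries, and 2641 and 2286 against 1092 and 1029 in the Tet2CD libraries, where the log2 fold change with the vector was -1.62 ± 0.16 (adjusted p = 5.52e-07). SLC7A5 had 882 and 916 CPM in SW480 against 383 and 370 in SW620 vector libraries, and 708 and 756 against 460 and 453 in the Tet2CD libraries, at -1.26 ± 0.16 (adjusted p = 1.01e-05) with the vector. All of these, and the partner chain SLC3A2 with 436 and 425 CPM in SW480 against 202 and 183 in SW620 vector libraries, and 619 and 490 against 237 and 213 in the Tet2CD libraries, were lower in SW620 without overlap. SLC3A2 had a log2 fold change of -1.16 ± 0.27 (adjusted p = 0.00283) in vector cells. SLC7A11 went the other way, with 5.56 and 8.17 CPM in SW480 against 33.3 and 41.2 in SW620 vector libraries, and 3.52 and 3.71 against 26.0 and 27.4 in the Tet2CD libraries. Its log2 fold change was 2.43 ± 0.40 (adjusted p = 0.000154) in vector and 2.87 ± 0.44 (adjusted p = 7.36e-05) in Tet2CD cells. These 5 calls of vector cells were kept in every alternative and whichever library was left out. SLC38A2 had 224 and 247 CPM in SW480 against 512 and 471 in SW620 vector libraries, and 77.1 and 147 against 419 and 449 in the Tet2CD libraries, and was called in Tet2CD cells (1.95, adjusted p = 0.0028) but not in vector cells (1.06, adjusted p = 0.0815), a difference that was not past the threshold when tested as the Tet2CD effect between lines (adjusted p = 0.612). Its call was lost without the first SW480 Tet2CD library (adjusted p = 0.0556). In vector cells SLC38A2 was called higher in SW620 with no filter on low counts (1.01, adjusted p = 0.00033) and with the GC offset (0.86, adjusted p = 0.0164). It was also called there averaged over treatments, and its log2 fold change was 1.02 without the first SW480 Tet2CD libraries. SLC7A1 was not called in either construct in the main fit, but was in both averaged over treatments.

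**Figure D4:**
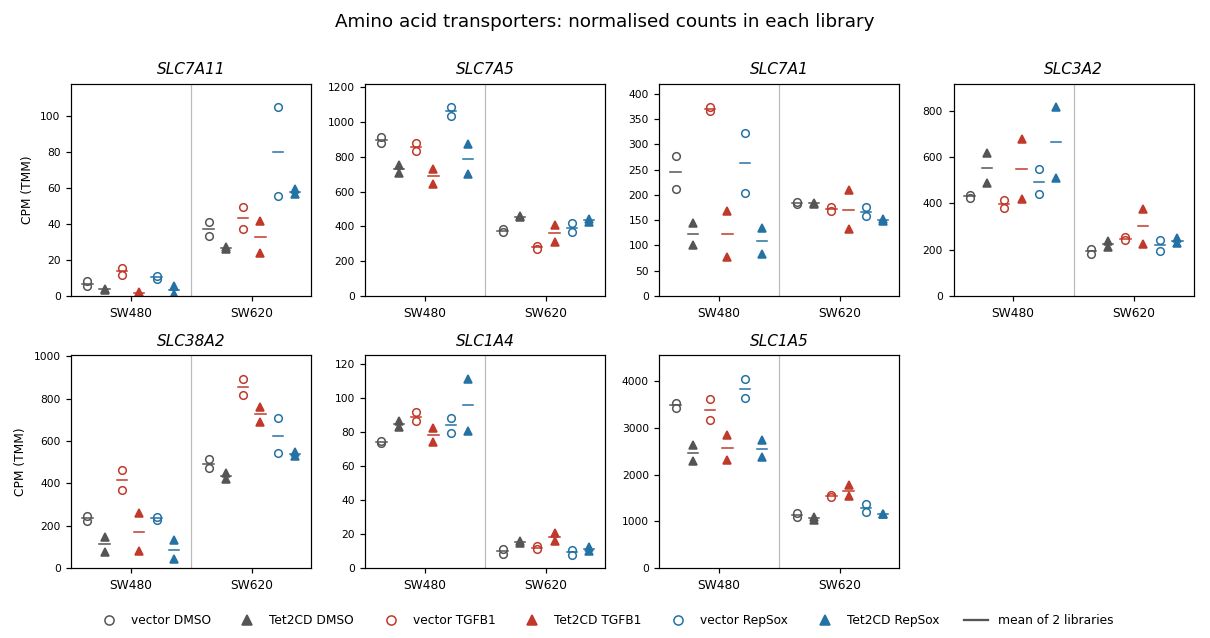
CPM (linear axes from 0, TMM scaling) of the 7 transporters in each library, drawn as for the regulators. SLC1A4 stands at 73.8 to 111 CPM in all SW480 libraries and at 7.78 to 20.6 in all SW620 libraries, and SLC7A11 at most at 15.8 in SW480 and at least at 24.1 in SW620.

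Of the 12 synthesis enzymes 3 were called between the lines in vector cells, all higher in SW620, which is below the 34.6% of all genes called. Averaged over the treatments 5 were higher and 4 lower (PHGDH, PSAT1, PYCR3 and CBS), and PHGDH was called lower with no filter (adjusted p = 0.0386) and without the first SW480 Tet2CD libraries (adjusted p = 0.000406). GPT2 had 74.4 and 60.3 CPM in SW480 against 147 and 158 in SW620 vector libraries, and 59.5 and 47.3 against 194 and 172 in the Tet2CD libraries. PYCR1 had 84.0 and 95.5 CPM in SW480 against 208 and 211 in SW620 vector libraries, and 156 and 118 against 261 and 240 in the Tet2CD libraries. SHMT2 had 378 and 379 CPM in SW480 against 603 and 635 in SW620 vector libraries, and 331 and 274 against 664 and 598 in the Tet2CD libraries. None of them overlapped between lines. The log2 fold changes in vector cells were 1.18 ± 0.18 (adjusted p = 7.67e-05), 1.22 ± 0.21 (adjusted p = 0.000193) and 0.71 ± 0.19 (adjusted p = 0.00727) and the call of SHMT2 was lost without either SW480 vector DMSO library or the second SW620 one (up to 0.0516). ALDH18A1 was not called in vector cells in the main fit. It was called there, higher in SW620, with the GC offset, a term for the library set, DESeq2 and averaged over treatments. In Tet2CD cells ALDH18A1, at 70.0 and 74.5 CPM in SW480 and 156 and 153 in SW620 (1.10, adjusted p = 9.33e-05) and MTHFD2 (1.07, adjusted p = 0.0163) were called in addition, and XPOT (0.81, adjusted p = 0.041). MTHFD2 and XPOT lost these calls without the first library of SW480 or either library of SW620 (up to 0.155 and 0.345). ASNS did not pass in either construct, at -0.21 (adjusted p = 0.575) in vector and 0.07 (adjusted p = 0.836) in Tet2CD cells, nor did PHGDH, PSAT1, PSPH, PYCR3, CTH or CBS over all libraries.

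The regulators differed in both directions. PPP1R15A had 83.2 and 84.6 CPM in SW480 against 45.4 and 49.4 in SW620 vector libraries, and 79.8 and 81.7 against 46.8 and 41.2 in the Tet2CD libraries. CEBPB had 84.3 and 71.0 CPM in SW480 against 26.2 and 22.5 in SW620 vector libraries, and 70.0 and 46.1 against 28.0 and 22.8 in the Tet2CD libraries. Both were lower in SW620 without overlap, at -0.82 ± 0.19 (adjusted p = 0.00262) and -1.67 ± 0.30 (adjusted p = 0.000341) in vector cells, and both kept these calls in every alternative. GADD45A had 46.3 and 40.4 CPM in SW480 against 90.4 and 111 in SW620 vector libraries, and 40.7 and 33.2 against 89.3 and 90.9 in the Tet2CD libraries. TRIB3 had 102 and 96.1 CPM in SW480 against 168 and 168 in SW620 vector libraries, and 91.1 and 68.1 against 164 and 152 in the Tet2CD libraries. These were the 2 regulators higher in SW620 vector cells, at 1.22 ± 0.29 (adjusted p = 0.00341) and 0.76 ± 0.24 (adjusted p = 0.0204). TRIB3 lost its call whichever library was left out (up to 0.124) and GADD45A without the second library of either line (up to 0.0568). STC2 (-0.56, adjusted p = 0.0176) and VLDLR (-1.31, adjusted p = 0.00389) were lower in SW620 vector cells, where STC2 lost its call whichever library was left out (up to 0.121), with no filter and with the GC offset, and VLDLR without the first SW620 library (0.0628). With Tet2CD, VLDLR had 46.9 and 67.6 CPM in SW480 and 14.8 and 11.9 in SW620 (-2.11, adjusted p = 5.41e-05). In Tet2CD cells DDIT4 (1.18, adjusted p = 0.000267), CHAC1 (1.15, adjusted p = 0.00557) and ATF4 (0.76, adjusted p = 0.0171) were higher in SW620 as well. ATF4 lost this call without the first SW620 or the second SW480 library (up to 0.141), and CEBPB, lower there too, lost it without the first SW480 library (0.0563) and with the GC offset (adjusted p = 0.0757). SLC7A5 lost its call in Tet2CD cells with the GC offset too (log2 fold change -0.36, adjusted p = 0.198). ATF4 in vector cells had 0.62 (adjusted p = 0.0573) and the SW620 libraries, at 593 and 620 CPM, lay above the SW480 libraries, at 402 and 387 CPM. There ATF4 was called higher in SW620 with the GC offset, a term for the library set and averaged over treatments. DDIT3 did not pass in either construct, at 0.38 (adjusted p = 0.497) in vector and -0.40 (adjusted p = 0.422) in Tet2CD cells, nor did ATF3, SESN2, CEBPG or NUPR1.

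**Figure D5:**
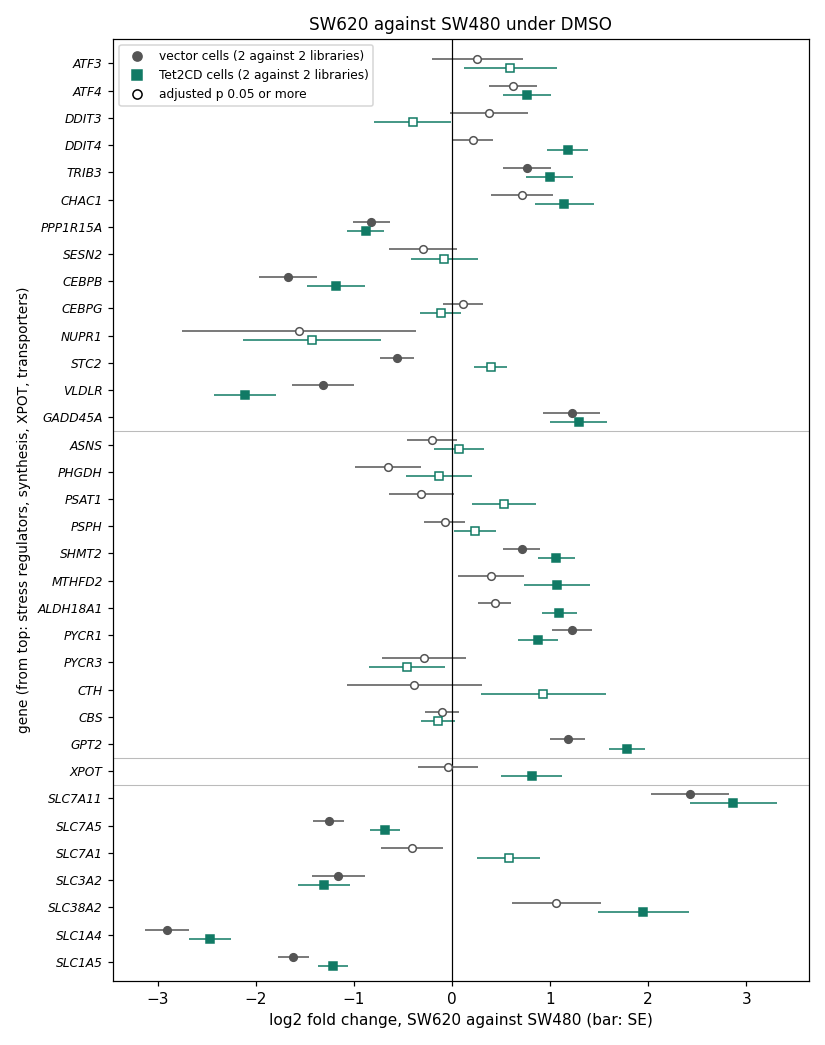
Log2 fold change of SW620 against SW480 under DMSO for each member in vector cells (circles) and Tet2CD cells (squares), 2 against 2 libraries each, with bars for the SE and open symbols where the adjusted p was 0.05 or more. SLC1A4, SLC1A5, SLC7A5 and SLC3A2 lie left of 0 and SLC7A11 right of it in both constructs.

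Lists beside the set were read in vector cells against the 34.6% of all genes called between the lines, 16.8% higher and 17.8% lower. Of 20 aminoacyl-tRNA synthetases 5 were higher in SW620 and none lower, with AARS at 1.75 ± 0.17 (adjusted p = 6.69e-07) and KARS at 1.73 ± 0.21 (adjusted p = 5.62e-06). Of 16 one-carbon and amino acid enzymes tested 6 were higher and 4 lower, of 14 other amino acid transporters 1 was higher and 6 lower, and of 13 eIF2 kinases and subunits 1 was higher and 3 lower. SLC7A7 (-4.02, adjusted p = 7.1e-09) and SLC7A8 (-2.58, adjusted p = 4.86e-08) had the smallest p among the transporters that were lower. Of 11 further ATF4 targets 4 were lower, CDKN1A with the smallest p (-5.10, adjusted p = 1.27e-10), and 1 was higher.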

How the data were processed

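RNA from 24 libraries of SW480 and SW620 cells was sequenced after Trizol extraction and TruSeq library preparation. According to the processing notes of the submitters, reads were handled with Bowtie and RSEM (no versions stated), and a mouse build is named, whereas the gene identifiers are human Ensembl ones. The authors deposited, for each library, the expected count that RSEM estimated per gene and the TPM value it derived from it, with no pooling. Whether strand was used in counting is not stated. In 22 of the 24 tables the effective length equals the gene length. Depth, 2146123 to 4410567 expected counts a library, limits genes of few reads, and the values carry counting error only within a library.

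Expected counts were rounded and fitted with edgeR 4.0.16 (R 4.3.3, limma 3.58.1): TMM scaling, filterByExpr, which kept 15302 of 33382 genes and all 34 members, 12 group means, 12 residual degrees of freedom, the quasi-likelihood F test and Benjamini-Hochberg adjustment over all genes tested, with a threshold of 0.05. The common biological coefficient of variation was 21.3%. Groups came from the sample labels, which carry no replicate numbers. Replicates 1 and 2 follow the order of the sample records and were not used as pairs in the main fit. SE is the absolute log2 fold change divided by the square root of F. Treatments were compared over both constructs (4 against 4 libraries), constructs and lines under DMSO (2 against 2), and differences of effects as interaction terms. Symbols were matched by Ensembl identifier to GENCODE release 29 (98.2% of genes). The fitting step was tested on simulated data. Promoter sequences are from RefSeq tables (GRCh38.p14).

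The members and all gene lists were chosen with earlier results of these data known. Values per library are given for members past the threshold, at most 6 with the smallest p per direction and comparison, and always for ATF4, DDIT3, ASNS, SLC7A11 and TRIB3 under TGFB1. From each other list up to 2 genes that rose and 2 that fell are named by smallest p, and 1 such result is not reported here. Named beyond this rule, after their values were seen, were MARS, CBSL, SLC38A2, SLC7A1, XPOT, CHAC1, NUPR1, members named for an alternative setting and the marker genes. The alternatives were relative log expression scaling, no filter, an offset for GC content, the 3 SW480 Tet2CD first libraries left out, a term for the library set (the first or second libraries of all groups), constructs and lines averaged over treatments, vector cells only, Tet2CD cells only (chosen after seeing the data), libraries of a line only, DESeq2 1.42.0, and each library left out in turn.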

Additional observations from a re-analysis of the deposited data

Results flagged for a closer look

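Averaged over the constructs, DDIT4, PPP1R15A and GADD45A responded to TGFB1 differently in the 2 lines, past the threshold of the edgeR test of the difference itself. The log2 difference, SW480 minus SW620, was -1.54 for DDIT4, -1.06 for PPP1R15A and -1.18 for GADD45A. In SW480 the effect on PPP1R15A was 0.79 in vector and -0.04 in Tet2CD cells, and in SW620 1.41 and 1.45. For DDIT4 it was 0.95 and 0.55 in SW480, and 2.18 and 2.38 in SW620. The line difference was not tested in vector cells alone. In SW620 all 3 genes were higher in 4 of 4 TGFB1 libraries than in any DMSO library, and in SW480 this held for DDIT4 within each construct and for PPP1R15A in vector cells. The difference for GADD45A was lost in 14 of the 16 fits that left out 1 library, and those for DDIT4 and PPP1R15A were kept in all 16.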

How the results depend on the processing

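No call of a member changed sign in any alternative. Of 267 recounts over 17 comparisons 206 stayed within 1.5 times the number of members called and 61 did not. The largest shift of the all-gene median under another scaling was 0.043 on the log2 scale. The cause of the moves was not tested. For Tet2CD against vector in SW480 (3 members called) the count was 6 with no filter, 7 with an offset for GC content, 10 without the first SW480 Tet2CD libraries, 22 averaged over treatments, 0 with the libraries of the line only, 7 with DESeq2 and 1 to 3 with 1 library left out. For the Tet2CD effect between lines (0) it was 3 without those 3 libraries, 12 averaged over treatments and 2 with DESeq2. Between the lines in vector cells (14) it was 25 averaged over treatments and 10 to 11 with 1 library left out. For TGFB1 in SW480 (2) it was 1 with the GC offset, 4 without the first Tet2CD libraries, 0 in Tet2CD cells only and 0 with the line only, and 1 to 2 with 1 library left out. For TGFB1 in SW620 (15) it was 24 without the first SW480 Tet2CD libraries, 9 in vector cells only, 6 in Tet2CD cells only, 24 with the line only, and 12 to 16 with 1 library left out. For RepSox in SW620 (4) it was 2 with no filter, 8 without the 3 libraries, 0 in vector and 0 in Tet2CD cells only, 9 with the line only, and 0 to 1 with 1 library left out. For TGFB1 against RepSox in SW480 (3) it was 7 with no filter, 6 with the GC offset, 9 without the 3 libraries, 0 in Tet2CD cells only, 0 with the line only, 7 with DESeq2, and 1 to 8 with 1 library left out, and in SW620 (20) it was 13 in Tet2CD cells only. For the TGFB1 effect between lines (3) it was 6 with no filter, 7 with the GC offset, 9 without the 3 libraries, 6 with DESeq2 and 2 to 5 with 1 library left out, and for the RepSox effect (0) 1 with no filter, 1 without the 3 libraries, 1 with DESeq2 and 0 to 2 with 1 library left out. Counts over all genes moved too: TGFB1 in SW620 called 2381 genes, 5446 without the 3 libraries, 5761 with the line only, 759 in vector cells and 733 in Tet2CD cells, and TGFB1 in SW480 called 160, 297 with no filter, 314 with the GC offset, 1004 without the 3 libraries, 389 with DESeq2 and 0 with the line only. Splits of higher against lower calls shifted between the lines in vector cells from 6 and 8 to 10 and 7 with the GC offset. The labels give no replicate numbers, but each library set holds every group once. With the set as a replicate block the count was 6 for Tet2CD against vector in SW480, ALDH18A1, SLC7A1 and SLC1A5 being added, and every other count of members stayed within 1.5 times. The difference between the 2 libraries of a group correlated between groups at -0.23 to 0.705 (median 0.026 over 66 pairs of groups, 12 of them over 0.1). Most pairs of groups thus shared little of this difference, but some shared much of it. The first SW480 Tet2CD libraries of all treatments, which stood apart, belong to the same set. Whether libraries of a set shared a culture or batch was not tested.

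Each group has 2 libraries of unstated origin. Genes of few reads (NUPR1, CTH, PYCR3, SLC7A11 in SW480) are imprecise, overlapping genes cannot be separated without a strand setting, and mRNA levels do not report protein.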
